A study of Mus musculus with 240 samples.

Results

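Acot1, Acot2, Acot3, Acot4, Cyp4a10, Cyp4a14 and Vnn1 are 7 mouse genes of fatty acid handling, and they are described here across 6 tissues of obese and lean mice. Each of the 7 is measured by 1 probe, and they are 7 of 19896 genes that could be named on the arrays. They were chosen by name, with their obesity effects in liver, gastrocnemius and soleus known, so those effects and their differences between strains are given below as descriptions, with no test. On each of 240 arrays of 2 colours, a tissue of 1 male mouse was compared with a pool of that tissue from its strain (20 mice, or 19 for BTBR liver, per the labels). There were 5 mice in each of 48 groups: BTBR mice carrying the ob mutation of the leptin gene Lep (ob) at 10 and 4 weeks, lean BTBR mice at 10 and 4 weeks, ob B6 mice at 10 and 4 weeks, and lean B6 mice at 10 and 4 weeks, each in liver, gastrocnemius, soleus, gonadal adipose tissue, pancreatic islets and hypothalamus. The labels do not give the Lep alleles of the lean mice, and name no diet or fasting state. Ob mice of the BTBR strain are known to become severely diabetic, while those of the B6 strain mostly do not.

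Acyl-CoA thioesterases split a fatty acyl-CoA into a free fatty acid and coenzyme A. ACOT1 works in the cytosol, ACOT2 in the mitochondrial matrix, and ACOT3 and ACOT4 in peroxisomes, with ACOT4 acting on dicarboxylic acyl-CoAs such as succinyl-CoA. CYP4A10 and CYP4A14 are microsomal cytochrome P450 enzymes that put a hydroxyl group on the omega end of a fatty acid, the first step towards dicarboxylic acids that peroxisomes shorten. VNN1 (vanin 1) is a pantetheinase that releases cysteamine and the coenzyme A precursor pantothenate. All of them are known in mouse liver as target genes of PPARalpha, a nuclear receptor that binds fatty acids and, as a dimer with RXR, a direct repeat of a short DNA motif. In muscle the related receptor PPARdelta is known to act on many of the same genes.

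In the mouse genome build GRCm38.p6 the 4 thioesterase genes lie side by side on the plus strand of chromosome 12: Acot2 at chr12:83987861-83993877, Acot1 at chr12:84009502-84017670, Acot4 at chr12:84037254-84044723 and Acot3 at chr12:84052144-84060400. Cyp4a14 (chr4:115486200-115496158) and Cyp4a10 (chr4:115518287-115533649) are neighbours on chromosome 4, and Vnn1 lies at chr10:23894688-23905344. Members of each cluster are close copies of one another. The probe sequences were not used here, so how much a probe also binds RNA of a neighbouring copy was not tested.

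The promoter windows of the 4 thioesterase genes are shown because these neighbours parted by tissue: Acot2, Acot3 and Acot4 were higher in 10-week ob livers of both strains, Acot1 in those of BTBR, and in muscle the large differences were in Acot1 and Acot2. They are from RefSeq on GRCm38.p6, plus strand, 5′ to 3′, and run from 250 bases before to 50 bases after an annotated transcription start: chr12:83987611-83987910 for Acot2, chr12:84009252-84009551 for Acot1, chr12:84038129-84038428 for Acot4 and chr12:84051894-84052193 for Acot3. Capitals mark the matches described below them.
Acot2: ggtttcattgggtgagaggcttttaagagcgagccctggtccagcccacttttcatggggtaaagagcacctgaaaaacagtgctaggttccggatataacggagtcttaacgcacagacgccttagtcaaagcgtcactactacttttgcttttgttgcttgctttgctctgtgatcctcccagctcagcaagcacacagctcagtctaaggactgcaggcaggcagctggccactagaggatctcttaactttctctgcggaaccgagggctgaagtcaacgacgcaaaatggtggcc
Acot1: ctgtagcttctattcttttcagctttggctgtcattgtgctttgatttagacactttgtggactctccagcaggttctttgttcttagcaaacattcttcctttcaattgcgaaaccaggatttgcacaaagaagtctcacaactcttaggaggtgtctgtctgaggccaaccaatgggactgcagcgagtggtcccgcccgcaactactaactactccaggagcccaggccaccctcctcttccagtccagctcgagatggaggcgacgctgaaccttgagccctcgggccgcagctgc
Acot4: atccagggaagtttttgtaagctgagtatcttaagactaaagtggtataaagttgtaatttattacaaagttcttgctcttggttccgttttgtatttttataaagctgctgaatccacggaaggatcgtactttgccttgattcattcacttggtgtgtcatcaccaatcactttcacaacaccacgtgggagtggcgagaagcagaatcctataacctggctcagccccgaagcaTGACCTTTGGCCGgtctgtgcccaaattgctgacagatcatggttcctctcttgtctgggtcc
Acot3: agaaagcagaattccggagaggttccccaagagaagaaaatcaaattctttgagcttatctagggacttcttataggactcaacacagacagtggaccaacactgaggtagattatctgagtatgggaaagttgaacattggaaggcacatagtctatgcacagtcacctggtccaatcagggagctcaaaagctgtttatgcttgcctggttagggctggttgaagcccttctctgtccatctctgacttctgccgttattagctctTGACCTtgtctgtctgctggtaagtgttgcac

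The perfect direct repeat AGGTCANAGGTCA, sought on both strands, was in 0.0396% of 32817 promoter windows and in none of 5 windows of the members. A looser form, AGGNCANAGGNCA, was in 0.381% of windows and also in none of these. The Acot4 window held CGGCCAAAGGTCA on the minus strand, 13 bases before the start, which matches NGGNCANAGGTCA, a pattern written after this sequence had been seen and found in 0.204% of all windows. The start used for this window lies inside Acot4, which begins at chr12:84037254, and the bases before that point were not searched. The single copy AGGTCA, which that pattern contains, was in 16.3% of windows, among them those of Acot4 and Acot3 (both windows of Acot3 in the table) and not those of Acot1 and Acot2. A match is a description of letters and not a site of binding, and no match says only that these letters are not in this window. The table held no window for Cyp4a10, Cyp4a14 or Vnn1.

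Values are log2 ratios of a mouse over its pool, so 0 is the pool's level and a difference of 1 is a change by a factor of 2. The obesity effect of a strain is its ob mean minus its lean mean, and the shared pool drops out of it. Levels could not be compared between strains, tissues or genes, nor could the labelled tissues be checked by the presence or absence of marker genes. Which dye is on top of the ratio is not stated, so the directions are likely ones. Log ratios of mice over a pool made of the same mice would on average be below 0. Most of the 200 most variable probes were so in 11 of 12 strain and tissue sets (not in B6 hypothalamus). The labels do not say that a pool holds the same mice. BTBR adipose tissue, whose pool is labelled as one of ob mice, is among the 11. If the ratio runs the other way, every higher value in the text is a lower one of equal size. Arrays of 1 group correlated at -0.39 to 0.897. Arrays whose spread was over 2 times the tissue's median were adipose tissue of 10-week lean BTBR mice 33 and 26 and 4-week lean BTBR mouse 37, and soleus of 4-week lean BTBR mouse 36. In adipose tissue Lep itself was at 0.04 to 1.27 in the ob mice and -3.13 to -1.15 in the lean mice, so no array went against its label. The number of arrays limits the precision.

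In liver all 7 genes were higher in 10-week BTBR ob mice than in their lean controls without overlap, and the omega-hydroxylases had by far the widest gap among the 7. Cyp4a10 stood at 0.98, 1.38, 1.54, 1.57 and 1.63 in the ob livers, against -4.16, -4.15, -3.46, -3.12 and -3.03 in the lean livers. Every ob mouse lay above the strain pool and every lean mouse far below it. The means were 1.42 ± 0.26 in ob and -3.59 ± 0.54 in lean mice (SD, n = 5 each), a difference of 5.01. Cyp4a14 stood at 1.03, 1.08, 1.44, 1.63 and 1.66 in the ob livers, against -3.52, -3.52, -3.48, -3.30 and -2.55 in the lean livers, a difference of 4.64. Here too no lean mouse came near an ob mouse, and the highest lean mouse, number 30, stood apart from the other 4.

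B6 livers of the same age showed a smaller gap in both genes, with overlap. Cyp4a10 was at 0.03, 0.05, 0.15, 0.38 and 0.49 in B6 ob mice, against -2.68, -1.46, -0.91, -0.45 and 0.33 in lean B6 mice, a difference of 1.26. Cyp4a14 was at 0.12, 0.19, 0.28, 0.29 and 0.47 in B6 ob mice, against -2.57, -0.95, -0.68, 0.08 and 0.37 in lean B6 mice, a difference of 1.02. The ob mice were tightly grouped, while the lean mice were spread over about 3 log2 units. Lean mouse 22 was the lowest of its group for Acot1, Acot2, Acot3, Acot4, Cyp4a10 and Cyp4a14. Without it the difference was 0.84 for Cyp4a10, 0.57 for Cyp4a14 and -0.65 for Acot1. The effect in BTBR exceeded that in B6 by 3.75 ± 0.58 (SE) for Cyp4a10 and 3.62 ± 0.46 (SE) for Cyp4a14. At 4 weeks the obesity effects were already on the same side, at 1.66 and 1.34 in BTBR and 0.56 and 0.43 in B6, for Cyp4a10 and Cyp4a14 in that order.

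The peroxisomal thioesterase gene Acot3 had the largest gap of its family in liver. It was at 0.28, 0.61, 0.69, 1.43 and 1.58 in 10-week BTBR ob mice, against -2.62, -2.16, -1.86, -1.50 and -1.43 in their lean controls, a difference of 2.83. In B6 the difference was 2.17 at 10 weeks, with means of 0.50 ± 0.21 in ob and -1.67 ± 1.27 in lean mice (SD, n = 5 each). Acot3 groups did not overlap in either strain at either age, with differences of 2.08 in BTBR and 1.54 in B6 at 4 weeks. Acot4, its peroxisomal neighbour, behaved alike on a smaller scale: 1.49 in BTBR and 1.19 in B6 at 10 weeks, and 1.10 and 0.92 at 4 weeks, again without overlap. The mitochondrial Acot2 was higher by 1.65 in BTBR and 1.42 in B6 at 10 weeks, both without overlap.

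The cytosolic Acot1 differed from its family in B6 liver. It was at -0.61, -0.37, -0.26, -0.07 and 0.03 in 10-week B6 ob mice, against -1.93, -0.09, 0.32, 0.32 and 1.02 in lean B6 mice, so that the lean values spanned the whole range of the ob values. In BTBR of that age Acot1 was at -0.40, 0.21, 0.39, 0.83 and 0.91 in ob mice, against -0.78, -0.77, -0.62, -0.54 and -0.40 in lean mice. The lowest ob mouse stood just above the highest lean mouse, and the means differed by 1.01. Vnn1, the pantetheinase gene, had like gaps in both strains: it was at 0.56, 0.93, 1.02, 1.08 and 1.13 in BTBR ob livers, against -1.56, -1.31, -0.83, -0.81 and -0.80 in lean BTBR livers. In B6 it was at 0.88, 1.03, 1.15, 1.22 and 1.28 in ob livers, against -1.92, -1.65, -1.25, -0.98 and -0.74 in lean livers. The groups were apart in both strains at 10 weeks, by 2.00 in BTBR and 2.42 in B6, and overlapped in both at 4 weeks (0.59 and 0.29).

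Over the 7 genes, the liver groups did not overlap and ob was higher for 7 in 10-week BTBR mice, where 21.6% of all 19896 genes met the same rule, for 4 in 10-week B6 mice (17.7%), for 4 in 4-week BTBR mice (7.96%) and for 2 in 4-week B6 mice (11.2%). Since these effects helped to choose the genes, nothing is read from the counts. The median difference of the 7 was 2.00 in BTBR and 1.26 in B6 at 10 weeks and 1.12 and 0.69 at 4 weeks, beside 0.02 to 0.03 over all genes. Beside these values, the mean of 10 hepatocyte marker genes in liver was -0.56 to -0.29 in 10-week BTBR ob mice and -0.21 to 0.15 in lean ones, and the mean of 8 macrophage markers was -0.68 to -0.12 in ob and -0.40 to 0.51 in lean mice. In 10-week B6 livers the hepatocyte mean was -0.25 to -0.13 in ob and 0.01 to 0.41 in lean mice. The mean of 8 adipocyte markers in liver was 0.10 to 0.14 in ob and -0.25 to -0.08 in lean BTBR mice, and 0.28 to 0.43 in ob and -0.43 to -0.23 in lean B6 mice, at 10 weeks. Of these means all but the macrophage one parted ob and lean mice without overlap. Their part in the result was not tested. In tissue RNA, fewer cells of a type and less RNA per cell cannot be told apart.

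**Figure D1:**
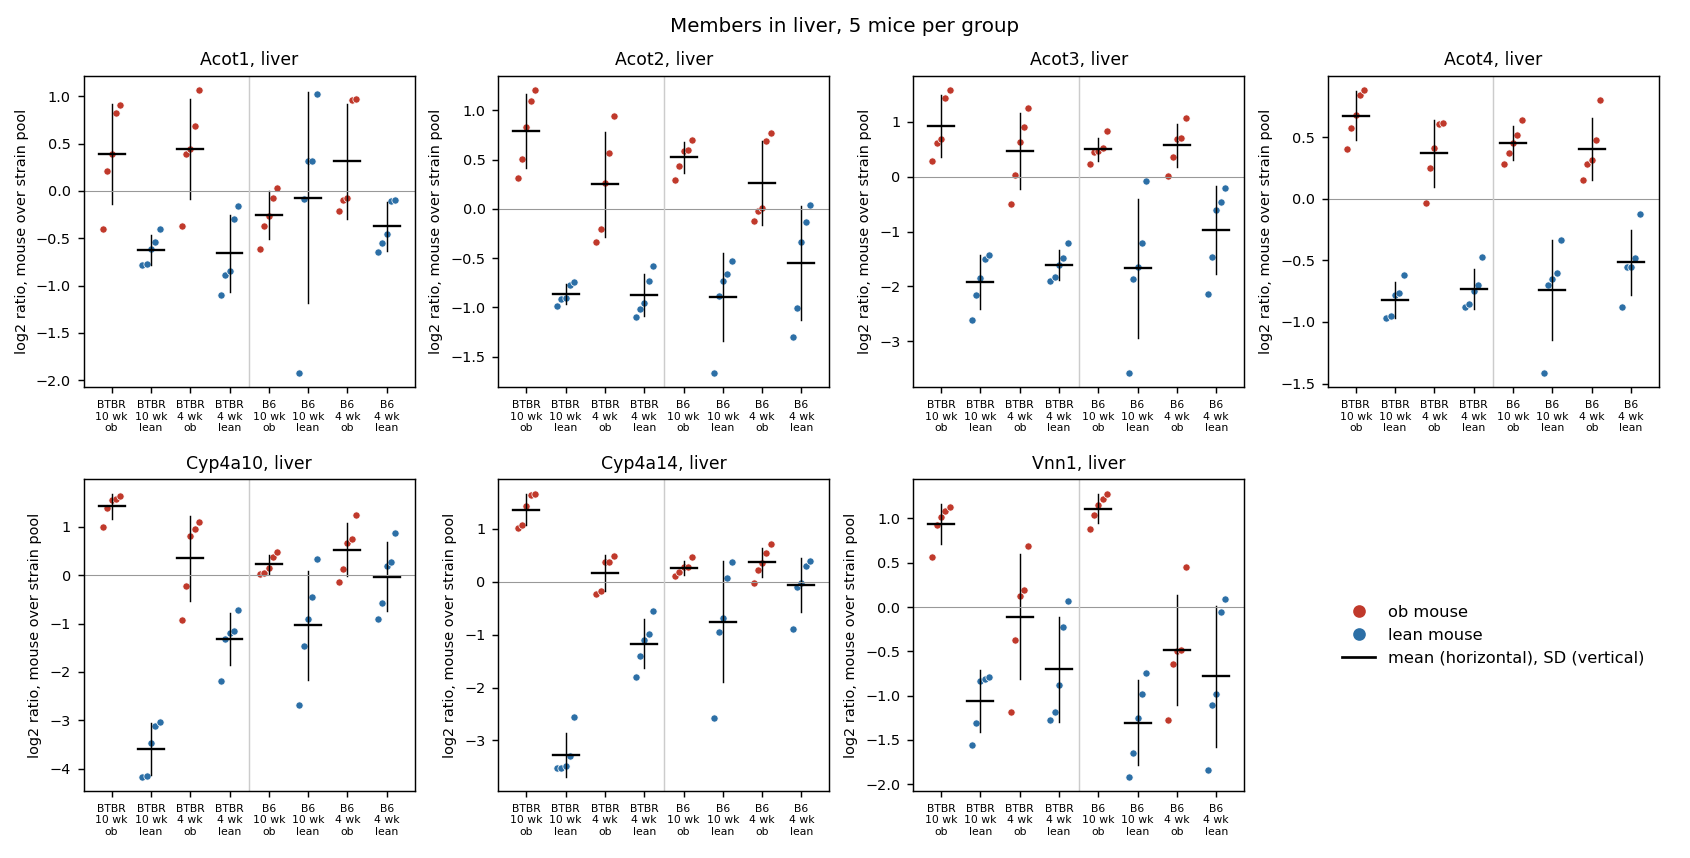
Log2 ratio of each liver to its strain's liver pool for the 7 genes, by strain, age and genotype (points are mice, red for ob and blue for lean; the horizontal line is the mean and the vertical line the SD of 5). Cyp4a10 and Cyp4a14 are lowest in 10-week lean BTBR mice, at means of -3.59 and -3.27, and the scale differs between panels.

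The BTBR gap was wider at 10 than at 4 weeks on both sides. In BTBR ob livers Cyp4a10 averaged 1.42 at 10 weeks and 0.34 at 4 weeks, and Cyp4a14 1.37 at 10 weeks and 0.17 at 4 weeks. Cyp4a10 in lean BTBR livers was -4.16, -4.15, -3.46, -3.12 and -3.03 at 10 weeks, as given above, against -2.19, -1.33, -1.19, -1.16 and -0.71 at 4 weeks. All 10-week lean mice were below all 4-week lean mice, a difference of -2.27 ± 0.41 (SE). Cyp4a14 differed by -2.11 ± 0.33, also without overlap, while 7.51% of all genes were lower without overlap between these groups. In lean B6 livers Cyp4a10 averaged -1.04 at 10 weeks and -0.04 at 4 weeks, and Cyp4a14 -0.75 and -0.06, with overlap. The other 5 genes differed by -0.36 to 0.04 between ages in lean BTBR livers, with overlap. These lean mice also entered the obesity effects that chose the genes, so the age differences in liver and muscle are given with no test.

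In gastrocnemius, a mostly fast-twitch leg muscle, Acot1 and Acot2 were far higher in 10-week BTBR ob mice than in their lean controls and in no other pair of groups. Acot1 was at 1.32, 1.61, 1.75, 1.81 and 1.87 in the BTBR ob muscles, against -2.21, -2.14, -2.07, -2.06 and -1.69 in the lean ones. The gap between the lowest ob and the highest lean mouse was about 3 log2 units, many times the spread of either group. The means were 1.67 ± 0.22 in ob and -2.03 ± 0.20 in lean mice (SD, n = 5 each), a difference of 3.70. In the other 3 pairs the ob mean was the lower one, with differences of -0.81 in 10-week B6, -0.38 in 4-week BTBR and -0.97 in 4-week B6 mice, without overlap only in the last. Acot2 was at 1.14, 1.27, 1.47, 1.48 and 1.52 in 10-week BTBR ob muscles, against -1.19, -1.11, -0.98, -0.90 and -0.74 in lean ones, a difference of 2.36. It differed by -0.35, -0.28 and -0.17 in the other 3 pairs in the same order, with overlap in each.

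The effect in BTBR exceeded that in B6 at 10 weeks by 4.51 ± 0.32 (SE) for Acot1 and 2.71 ± 0.19 (SE) for Acot2, the largest and second largest such excess of the 19896 genes. Since these effects helped to choose the genes, nothing is read from the ranks. With quantile normalization between arrays the excess for Acot1 was 5.37. Acot3, Acot4, Cyp4a10, Cyp4a14 and Vnn1 barely moved in this muscle: at 10 weeks their differences ran between -0.03 and 0.16 in BTBR. Of the 7 genes 2 were higher without overlap in 10-week BTBR muscles, beside 9.63% of all genes, and none in 10-week B6 muscles, beside 7.55%. At 4 weeks 1 was lower without overlap in BTBR (Vnn1, a difference of -0.10; 2.17% of all genes) and 1 in B6 (Acot1; 3.6%). The mean of 8 slow-fibre markers in this muscle was 0.33 to 0.72 in ob and -0.53 to -0.14 in lean BTBR mice at 10 weeks. It was 0.17 to 0.38 in ob and -1.27 to -0.73 in lean B6 mice. The mean of 8 adipocyte markers was -0.81 to -0.16 in ob and -0.05 to 0.98 in lean BTBR mice, without overlap, and -0.37 to 0.25 in ob and -0.07 to 0.19 in lean B6 mice. The part of these markers in the BTBR values was not tested.

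Soleus, a slow-twitch muscle, gave the same picture at 10 weeks. Acot1 was at 1.29, 1.54, 1.63, 1.71 and 1.87 in BTBR ob muscles, against -1.69 to -0.95 in lean ones (median -1.29), a difference of 2.87 with no overlap. At 4 weeks the order was the opposite. Acot1 was then at -4.43, -4.19, -3.60, -3.36 and -3.11 in BTBR ob muscles, against -2.77, -2.72, -2.46, -1.93 and -1.68 in lean ones, so every ob mouse was lower, and the means differed by -1.43. Acot2 did likewise, at 1.43 at 10 weeks and -0.59 at 4 weeks, both without overlap. It was at 0.99, 1.07, 1.28, 1.28 and 1.38 in 10-week ob muscles, against -0.44, -0.42, -0.17, -0.09 and -0.05 in lean ones. In B6 soleus the difference for Acot1 was -1.80 at 4 weeks, without overlap, and -0.38 at 10 weeks, with overlap. Acot2 differed by -0.46 and -0.09, with overlap in both.

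The effect in BTBR exceeded that in B6 at 10 weeks by 3.25 ± 0.43 (SE) for Acot1 and 1.52 ± 0.24 (SE) for Acot2 in soleus. The rule of no overlap took 3 of the 7 genes as higher in 10-week BTBR ob soleus, Acot1, Acot2 and, with a difference of 0.15, Acot4, beside 8.53% of all genes. It took 2 as lower in 4-week BTBR (1.96%), 1 as lower in 4-week B6 (2.36%) and 0 in 10-week B6 mice (7.66% higher and 6.77% lower). Cyp4a10 in soleus spread widely within groups, from -0.54 to 2.20 in 10-week BTBR ob mice and -0.78 to -0.31 in lean ones, a spread taken up below with hepatocyte markers. In 10-week soleus the mean of 7 fast-fibre markers was -1.96 to 0.04 in ob and -0.90 to 0.92 in lean BTBR mice, and -1.08 to -0.47 in ob and 0.14 to 0.66 in lean B6 mice. The mean of 8 slow-fibre markers was 0.08 to 0.23 in ob and -0.33 to 0.25 in lean BTBR mice, and that of 8 adipocyte markers -0.82 to -0.07 in ob and -0.13 to 0.51 in lean BTBR mice. These groups overlapped in BTBR, and the part of the markers was not tested. In lean soleus Acot1 was higher at 10 than at 4 weeks by 1.05 ± 0.30 in BTBR and differed by 0.04 ± 0.30 in B6, and Acot2 was higher by 0.80 ± 0.17 in BTBR and 0.61 ± 0.17 in B6 (SE). Only Acot2 in BTBR did not overlap, beside 10.4% of all genes. In lean gastrocnemius the age difference of Acot2 was 0.23 ± 0.13 in BTBR and 0.60 ± 0.13 in B6, and that of Acot1 -0.04 ± 0.22 in BTBR and -0.28 ± 0.22 in B6, all with overlap.

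**Figure D2:**
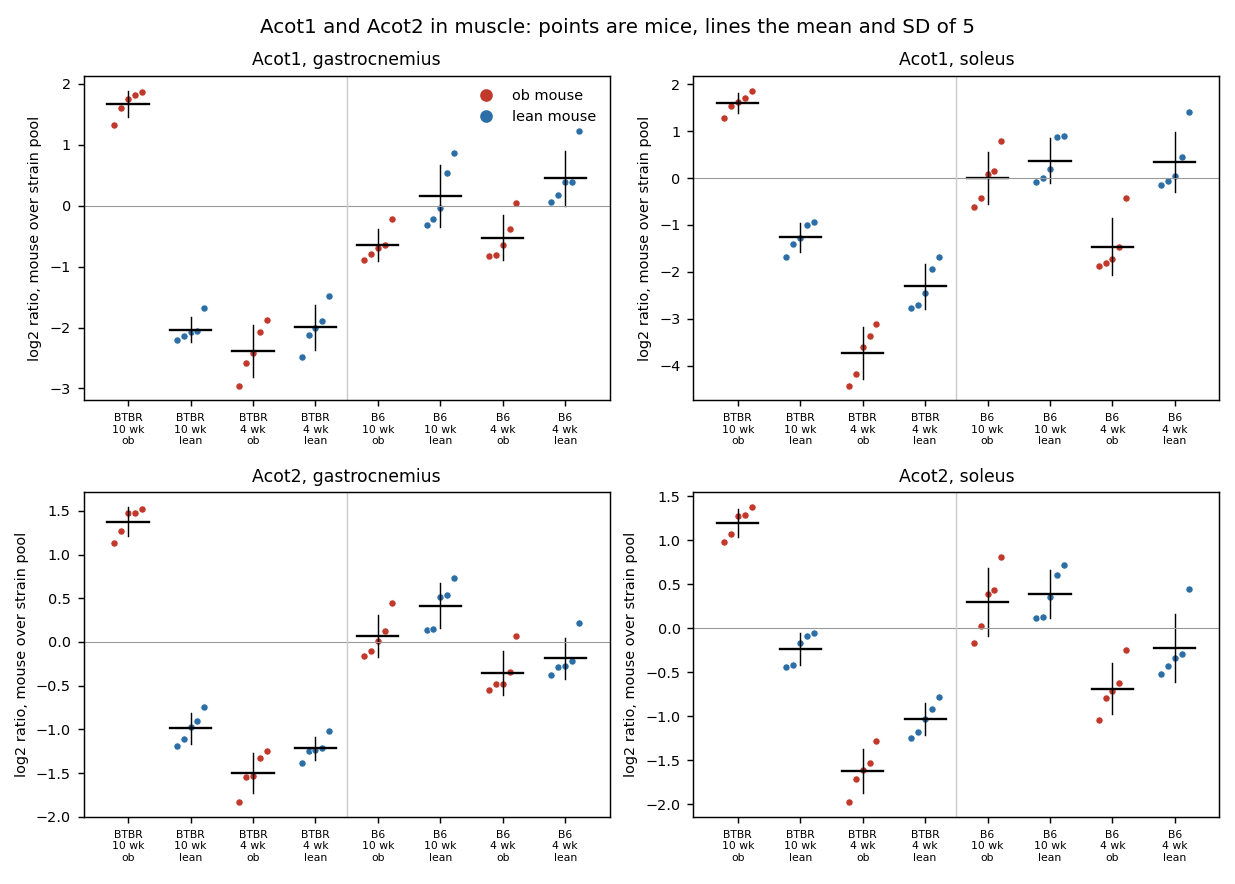
Log2 ratio to the strain's muscle pool for Acot1 and Acot2 in gastrocnemius and soleus, by strain, age and genotype (points are mice, lines the mean and SD of 5). Only the 10-week BTBR pair has ob mice clear above lean mice, by 3.70 for Acot1 in gastrocnemius and 2.87 in soleus, and in 4-week BTBR soleus the ob mice are below the lean mice.

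Adipose tissue, islets and hypothalamus were not the tissues named first in the choice of genes, and here the obesity effect was tested with limma (adjusted p under 0.05 over 19896 genes). The genes were still chosen with earlier results of these data known, and the titles give many of the same mouse numbers in these tissues. The p-values in these tissues do not allow for that choice. In adipose tissue the omega-hydroxylases rose in 10-week ob mice of both strains. Cyp4a10 was at 0.39, 1.38, 1.72, 1.79 and 1.82 in BTBR ob fat, against -3.58, -3.37, -2.32, -2.02 and -1.68 in lean fat, with no overlap. Mice 33 and 26 of this lean group were among those whose arrays had a spread over 2 times the tissue's median. Cyp4a10 rose by 4.01 ± 0.72 (SE, adjusted p = 2.76e-05) in BTBR, and Cyp4a14 by 0.88 ± 0.15 (SE, adjusted p = 1.01e-05). In B6 Cyp4a10 was at -0.77, -0.34, 0.17, 0.27 and 2.30 in ob fat, against -3.29, -2.78, -2.58, -2.23 and 1.77 in lean fat. One lean mouse, number 24, was as high as the ob mice, and the other 4 were below them all. Cyp4a10 rose by 2.15 ± 0.72 (SE, adjusted p = 0.0158) in B6, and Cyp4a14 by 0.36 ± 0.15 (SE, adjusted p = 0.0482). The call for Cyp4a10 was lost without lean mouse 22 (1.78) or ob mouse 1823 (1.66), and that for Cyp4a14 without any 1 of 7 mice. Whether the effect differs between strains was tested and not called for either gene (1.87 ± 1.02, adjusted p = 0.252, and 0.52 ± 0.21, adjusted p = 0.101).

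The mean of 10 hepatocyte markers in fat was -0.44 to 0.40 in ob and -1.65 to 1.43 in lean BTBR mice at 10 weeks, and -0.53 to 1.60 in ob and -2.95 to 1.57 in lean B6 mice. With that mean as a covariate, an alternative added after the data had been seen, the B6 differences were 0.43 for Cyp4a10 and 0.10 for Cyp4a14, neither called. The BTBR differences were 3.97 and 0.88, both still called. The excess of BTBR over B6 was then 3.54 ± 0.56 for Cyp4a10 and 0.78 ± 0.17 for Cyp4a14 (SE, adjusted p = 5.12e-05 and 0.00229), called for both, where neither was without the covariate. The mean of 8 macrophage markers was 0.91 to 1.34 in ob and -1.79 to -1.05 in lean BTBR mice at 10 weeks, and 0.90 to 1.15 in ob and -1.32 to -0.50 in lean B6 mice; its part in the results on fat was not tested.

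Acot1, Acot2 and Acot4 fell and Acot3 rose in 10-week B6 fat. Acot4 was at -0.55, -0.54, -0.53, -0.46 and -0.30 in 10-week B6 ob fat, against 0.06, 0.11, 0.23, 0.37 and 0.41 in lean fat, and fell by 0.71 ± 0.12 (SE, adjusted p = 5.47e-06). Acot2 changed by -0.67 ± 0.11 (SE, adjusted p = 6.33e-06) and Acot1 by -1.34 ± 0.53 (SE, adjusted p = 0.043). The Acot1 call was lost without any 1 of 7 mice and with the hepatocyte covariate (-1.29, adjusted p = 0.0923), and the lean values alone ran from 0.20 to 0.98. Acot3 rose by 0.50 ± 0.13 (SE, adjusted p = 0.00179). In 10-week BTBR fat none of the 4 passed the test: Acot1 was at -0.23 ± 0.53, Acot2 at -0.12 ± 0.11, Acot3 at 0.24 ± 0.13 and Acot4 at -0.11 ± 0.12. The difference between strains passed for Acot2 (0.55 ± 0.16, adjusted p = 0.0161) and Acot4 (0.60 ± 0.16, adjusted p = 0.0119). The mean of 8 adipocyte markers in fat was -1.26 to -0.71 in ob and -0.04 to 0.16 in lean BTBR mice at 10 weeks, and -0.84 to -0.62 in ob and -0.23 to 0.21 in lean B6 mice, without overlap in either strain. Its part in these values was not tested. At 4 weeks Vnn1 fell in BTBR fat, at -1.46, -1.41, -1.39, -0.88 and -0.81 in ob mice against -0.40, -0.29, -0.18, 0.02 and 0.31 in lean mice (difference -1.08 ± 0.25 (SE, adjusted p = 0.00109)), and Acot3 rose by 0.36 ± 0.13 (SE, adjusted p = 0.0269). Acot4 changed by -0.32 ± 0.12 (SE, adjusted p = 0.031) in 4-week B6 fat, a call lost without any 1 of 7 mice, and that for Acot3 was lost without any 1 of 4.

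By direction, 2 of 7 genes rose in 10-week BTBR fat, where 22.7% of all genes did. In 10-week B6 fat 3 rose and 3 fell, beside 23.4% and 18.3% of all genes. At 4 weeks 1 rose (18.5% of all genes) and 1 fell (13.4%) in BTBR, and 1 fell in B6 (15.2%). The difference between strains passed for 2 of 7 at 10 weeks, both higher in BTBR (6.91%), and by limma for 0 at 4 weeks (1 at an unadjusted p under 0.05). At 4 weeks it passed for 0.472% of all genes as higher and 0.774% as lower in BTBR. By limma 0 of 7 differed between 10 and 4 weeks in lean fat of either strain, beside 17.4% of all genes in BTBR and 18.1% in B6; at an unadjusted p under 0.05 there were 1 in BTBR and 1 in B6. The shares of 2 to 3 in 7 are based on few genes and are not set apart from the background.

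In islets Acot1 was the gene of the 7 that moved most, downwards in every pair of groups except 10-week BTBR. It was at -2.19, -2.14, -1.98, -1.89 and -1.78 in 10-week B6 ob islets, against 0.12, 0.32, 0.34, 0.45 and 0.56 in lean ones. The groups were about 2 log2 units apart, and Acot1 changed by -2.35 ± 0.16 (SE, adjusted p = 1.01e-13). In 10-week BTBR islets it was at -0.07, 0.19, 0.31, 0.45 and 0.73 in ob mice, against -0.77, -0.66, -0.51, -0.22 and -0.14 in lean mice, and rose by 0.78 ± 0.16 (SE, adjusted p = 0.00012). At 4 weeks the change was -1.36 ± 0.16 (SE, adjusted p = 2.31e-08) in BTBR and -1.41 ± 0.16 (SE, adjusted p = 1.2e-08) in B6, and the difference between strains was 0.05 ± 0.23 (SE, adjusted p = 0.929) at that age. At 10 weeks the effect in BTBR exceeded that in B6 by 3.13 ± 0.23 (SE, adjusted p = 1.34e-12). BTBR therefore had Acot1 effects of opposite sign at 10 and 4 weeks in islets, as it had in soleus.

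The mitochondrial Acot2 changed less in islets: by 0.23 ± 0.09 (SE, adjusted p = 0.0289) in 10-week BTBR and by -0.50 ± 0.09 (SE, adjusted p = 1.97e-05) in 4-week BTBR mice. The difference between strains passed for it at both ages, at 0.42 ± 0.12 (SE, adjusted p = 0.00855) at 10 weeks and -0.66 ± 0.12 (SE, adjusted p = 0.000482) at 4 weeks. Acot3 rose by 0.22 ± 0.07 (SE, adjusted p = 0.0074) in 10-week BTBR and 0.24 ± 0.07 (SE, adjusted p = 0.00472) in 4-week B6 islets, and its strain difference at 10 weeks was 0.33 ± 0.10 (SE, adjusted p = 0.00908). Vnn1 rose by 0.35 ± 0.11 (SE, adjusted p = 0.00792) and Acot4 changed by -0.17 ± 0.06 (SE, adjusted p = 0.0196) in 10-week B6 islets. The call for Acot2 in 10-week BTBR islets was lost without any 1 of 4 mice, and that for Acot4 without either of 2. Cyp4a10 and Cyp4a14 passed no comparison in islets. Of the 7 genes 3 rose in 10-week BTBR islets, where 25.9% of all genes did, 1 rose (24.3%) and 2 fell (19.8%) in 10-week B6 islets, 2 fell in 4-week BTBR islets (21%), and 1 rose (24.6%) and 1 fell (20.6%) in 4-week B6 islets. The strain difference passed for 3 at 10 weeks, all higher in BTBR (16%), and for 1 at 4 weeks, lower in BTBR (6.09%).

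Islet preparations can hold acinar tissue. The mean of 7 acinar markers was -1.06 to 0.09 in ob and -0.01 to 1.36 in lean BTBR mice at 10 weeks, and -2.16 to -1.36 in ob and -0.39 to 1.69 in lean B6 mice. At 4 weeks it was -1.40 to -0.87 in ob and -1.18 to 0.42 in lean BTBR mice, and -3.05 to -2.17 in ob and -0.78 to 0.42 in lean B6 mice. With that mean as a covariate, added after the data had been seen, Acot1 at 10 weeks stood at 1.01 in BTBR and -1.85 in B6, and its strain difference at 2.86, all still called. At 4 weeks Acot1 stood at -1.18 in BTBR and -0.93 in B6, both still called. The calls lost with the covariate among the obesity effects at 10 weeks were those for Vnn1 (0.34, adjusted p = 0.188) and Acot4 (-0.14, adjusted p = 0.381) in B6 and Acot3 (0.18, adjusted p = 0.0702) in BTBR islets, and at 4 weeks that for Acot3 in B6 islets (0.15, adjusted p = 0.388). The difference for Vnn1 was 0.35 without the covariate. In lean islets Acot1 was lower at 10 than at 4 weeks, with differences of -1.02 ± 0.16 (SE, adjusted p = 1.92e-05) in BTBR and -0.52 ± 0.16 (SE, adjusted p = 0.0247) in B6, and Acot2 was higher in B6 by 0.49 ± 0.09 (SE, adjusted p = 0.000136). These were 1 of 7 lower in BTBR (8.24% of all genes) and 1 lower (7.98%) and 1 higher (6.98%) in B6, and the B6 call for Acot1 was lost without any 1 of 4 mice.

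In hypothalamus limma called 0 of 7 genes in every comparison, and at an unadjusted p under 0.05 there was 1 in each of 4 of them. The 7 differences in 10-week BTBR mice ran from -0.13 to 0.11, in a tissue where 12.6% of all genes changed in that comparison, 0.759% in 10-week B6, 0.352% in 4-week BTBR and 4.39% in 4-week B6 mice. The strain difference passed for 0.307% of all genes as higher and 0.246% as lower at 10 weeks, and for 0% and 0% at 4 weeks. Between 10 and 4 weeks in lean mice 1.41% were higher and 3.6% lower in BTBR, and 4.19% and 6.07% in B6. Acot1 and Acot2 thus followed different courses by tissue although their sequences are close: in 10-week B6 liver they differed by -0.19 and 1.42, in 10-week B6 islets by -2.35 and -0.19, and in 10-week BTBR gastrocnemius by 3.70 and 2.36 (ob minus lean, Acot1 first). The 2 hydroxylase probes both rose in 10-week BTBR fat, by 4.01 for Cyp4a10 and 0.88 for Cyp4a14. These sizes were not tested against each other.

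**Figure D3:**
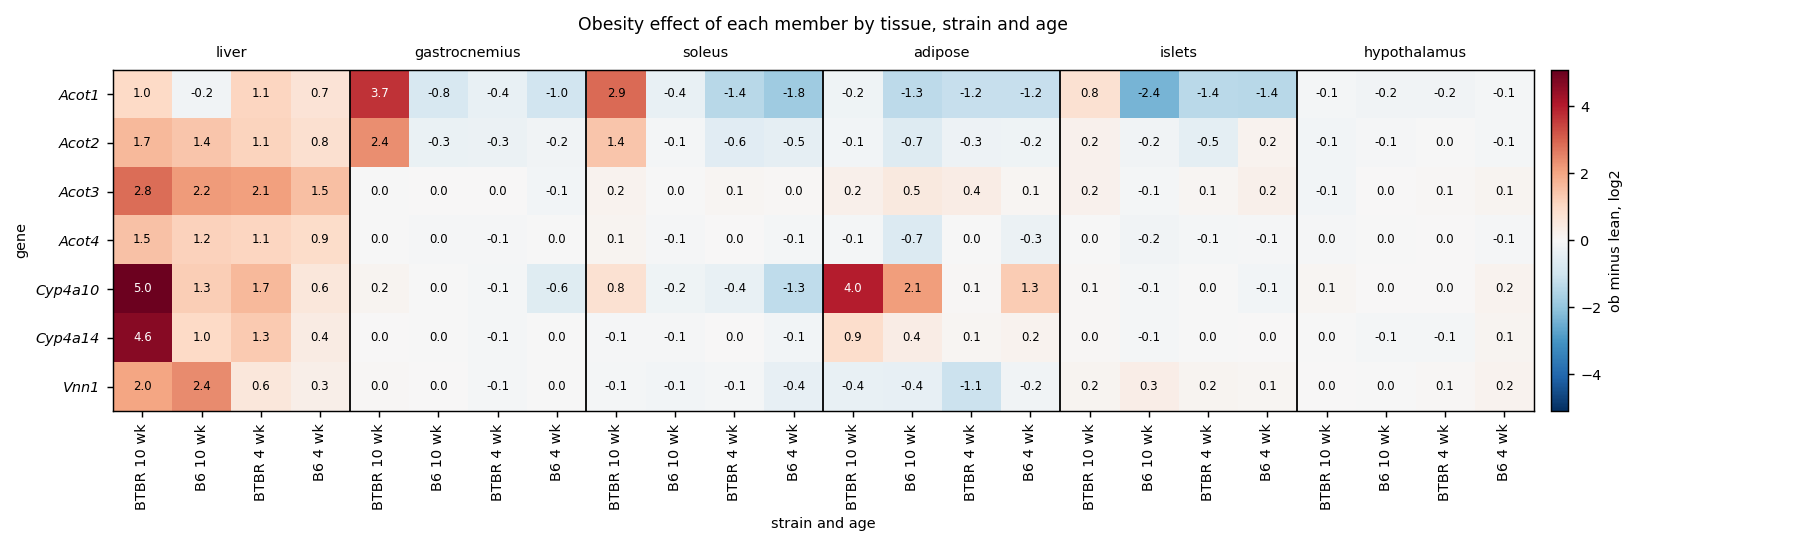
Ob minus lean difference (log2, coloured and printed to 1 decimal) of each of the 7 genes in 6 tissues, by strain and age. Liver is above 0 for all genes but Acot1 in 10-week B6 mice, muscle is far above 0 only for Acot1 and Acot2 in 10-week BTBR mice, and Acot1 in islets has opposite signs in 10-week BTBR and B6 mice.

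Group differences aside, mice that were high for 1 gene in liver were high for the others. After the mean of each group was subtracted, all 21 pairs of the 7 genes correlated over the 40 livers with an adjusted permutation p under 0.05, with r of 0.499 to 0.887 and a median of 0.66. What share of other gene pairs would pass was not computed, here or for the relations in muscle, between tissues and with hepatocyte markers. By r the closest pairs were Acot3 with Acot4 (r = 0.887, rho = 0.852, adjusted permutation p = 4.2e-05 for both) and Cyp4a10 with Cyp4a14 (r = 0.845, rho = 0.793, adjusted permutation p = 4.2e-05 for both). Acot2, at the other end of the cluster from Acot3, was nearly as close to Acot4 (r = 0.841, rho = 0.823) and Acot3 (r = 0.824, rho = 0.851). Its neighbour Acot1 had lower r, at 0.779 with Acot2 and 0.778 with Acot4. Without the 2 mice farthest out on the first gene, r was 0.834 for Acot3 with Acot4 and 0.815 for Cyp4a10 with Cyp4a14. The weakest after that step included Acot3 with Cyp4a10, at 0.523 with all mice and 0.354 without those 2. Some of the genes varied little between mice in muscle. In gastrocnemius the group SDs were 0.019 to 0.077 for Acot4 and 0.03 to 0.144 for Vnn1. In liver they were 0.138 to 0.403 and 0.16 to 0.797. How far a small spread lowers r was not tested. Far fewer pairs went together in muscle. Acot1 and Acot2 did in gastrocnemius (r = 0.819, rho = 0.786, adjusted permutation p = 0.00021) and in soleus (r = 0.821, rho = 0.754, adjusted permutation p = 0.00021). They were 2 of 5 pairs called among 42. The other 3 called were Acot1 with Vnn1 and Acot2 with Vnn1 in gastrocnemius, at r = 0.498 and 0.519 with all mice and 0.365 and 0.374 without 2, and not called by rho (adjusted permutation p = 0.0629 and 0.064), and Cyp4a10 with Cyp4a14 in soleus, at r = 0.711 (adjusted permutation p = 0.0132) and 0.497 without 2.

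The titles give the same mouse number in several tissues, so the deviations could be set against each other within a mouse. Over 39 mice Acot1 in gastrocnemius went with Acot1 in soleus (r = 0.839, rho = 0.774, adjusted permutation p = 0.000105, r = 0.807 without the 2 farthest mice). Acot2 did the same (r = 0.859, rho = 0.831, adjusted permutation p = 0.000105, r = 0.819 without 2). The relation of liver with muscle was not called for either gene. Against gastrocnemius over 37 mice, r was -0.017 and rho -0.125 for Acot1, and r was -0.262 and rho -0.257 for Acot2 (adjusted permutation p of r = 0.99 and 0.588). Without the 2 farthest mice r was -0.342 for Acot1 and -0.433 for Acot2, so the value near 0 for Acot1 rests on those mice. Against soleus over 38 mice r was -0.053 and -0.331 (rho -0.147 and -0.352, adjusted permutation p of r = 0.99 and 0.499), and -0.318 and -0.486 without 2. Of 21 relations between tissues these 2 between the muscles were called, and 3 had an unadjusted p under 0.05. What the mice shared on the day of sampling, such as fasting time, was not given and its part was not tested.

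**Figure D4:**
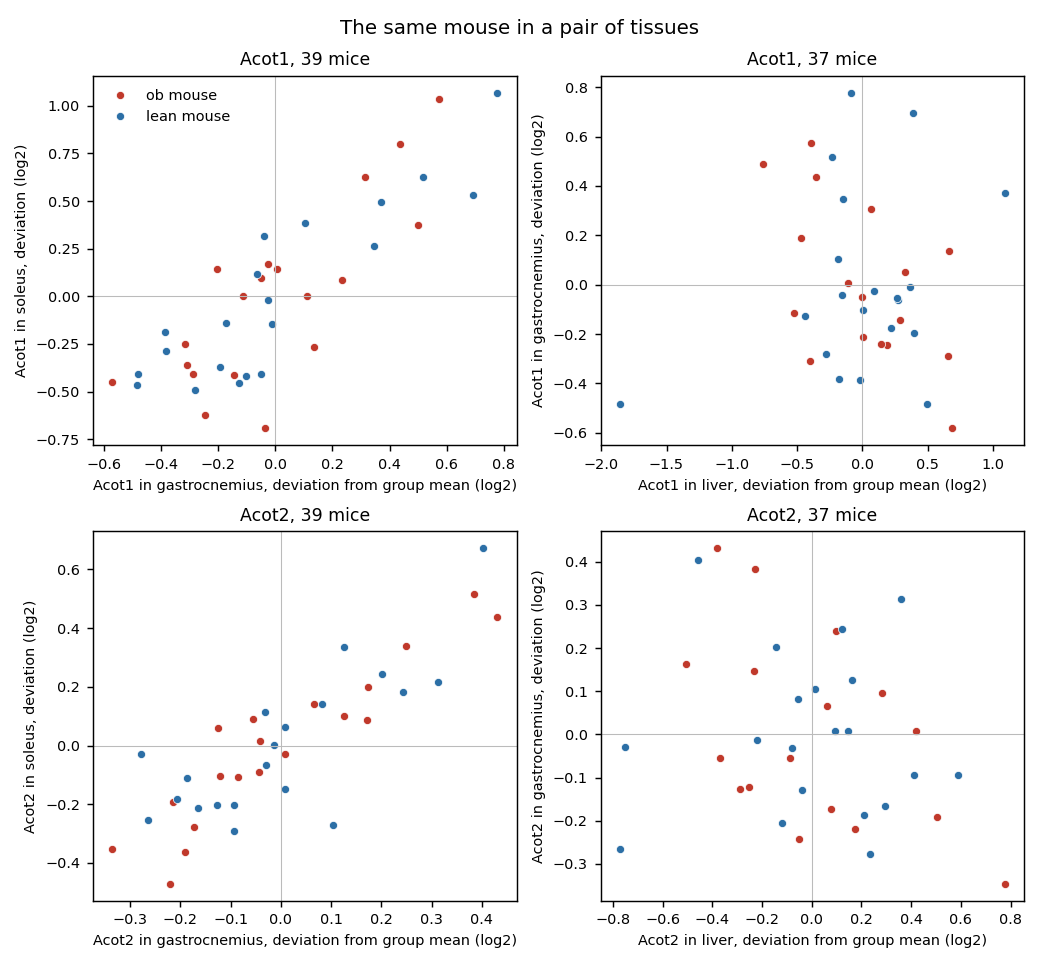
Deviation of each mouse from its group mean (log2) for Acot1 (top) and Acot2 (bottom), with soleus against gastrocnemius on the left and gastrocnemius against liver on the right (red ob, blue lean). The 39 mice on the left rise together (r = 0.839 and 0.859), while for the 37 on the right r is -0.017 and -0.262, and -0.342 and -0.433 without the 2 farthest mice.

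Genes of hepatocytes varied in the muscles and in fat from mouse to mouse, and Cyp4a10 varied with them. The mean of 10 hepatocyte markers (among them albumin, Alb, and transthyretin, Ttr) ran from -1.19 to 1.47 over the gastrocnemius arrays, from -1.82 to 2.83 over soleus and from -2.95 to 1.60 over fat. Against the deviations of that mean, those of Cyp4a10 had r = 0.826 and rho = 0.787 in gastrocnemius, r = 0.809 and rho = 0.807 in soleus and r = 0.861 and rho = 0.807 in fat (n = 40 each, adjusted permutation p = 0.000105, 0.00378 and 0.000105). Without the 2 farthest arrays r was 0.87, 0.817 and 0.828. The relations with these markers were added after the data had been seen, and their p-values do not allow for that choice. For Cyp4a14 the relation was called in fat (r = 0.654, rho = 0.486, adjusted permutation p = 0.00514, 0.614 without 2). It was not called in soleus (r = 0.497, rho = 0.344, adjusted permutation p = 0.0542, 0.464 without 2) or gastrocnemius (r = 0.419, rho = 0.27, adjusted permutation p = 0.129, 0.262 without 2), and the tissues were not tested against each other. Of 21 such relations 4 were called. None was for Acot1, with r of -0.14, 0.053 and -0.029 in gastrocnemius, soleus and fat. Its 10-week BTBR difference was 3.67 in gastrocnemius and 2.87 in soleus with the markers as a covariate, and 3.70 and 2.87 without it.

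**Figure D5:**
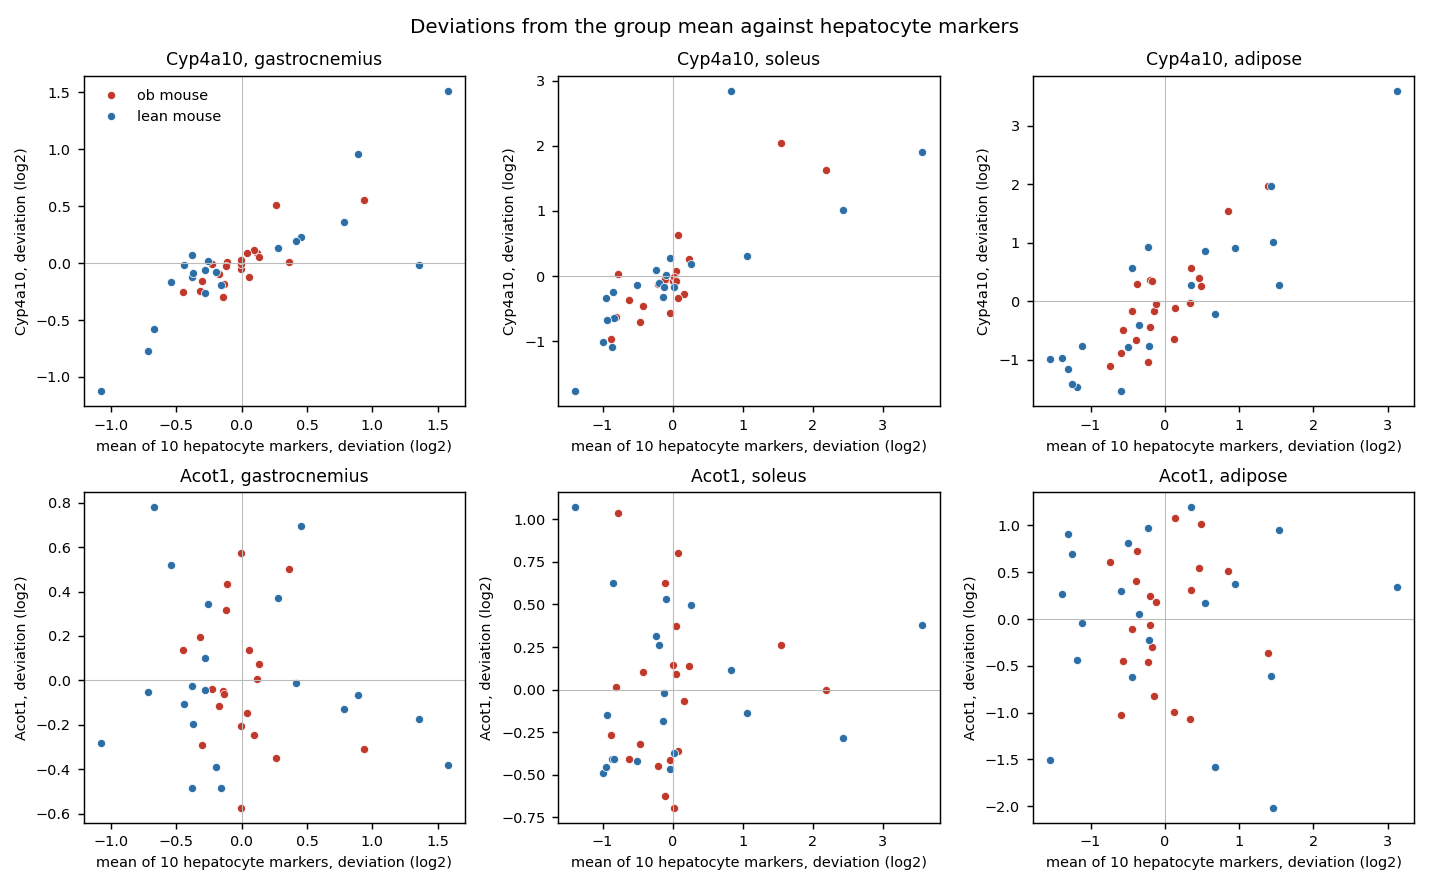
Deviation from the group mean (log2) of Cyp4a10 (top) and Acot1 (bottom) against that of the mean of 10 hepatocyte markers, in gastrocnemius, soleus and fat (1 point per mouse, red ob, blue lean). Cyp4a10 climbs with the markers (r = 0.826, 0.809 and 0.861) and Acot1 has r of -0.14, 0.053 and -0.029.

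Other genes of the same pathways were followed as lists, drawn up by pathway with earlier results of these data known. In 10-week BTBR ob livers 16 of 18 genes of mitochondrial fatty acid oxidation and ketogenesis rose and 0 fell, and 14 of 19 genes of peroxisomal oxidation rose and 1 fell, where 28% of all genes rose and 21.7% fell. In B6 livers of that age the counts were 7 higher and 1 lower, and 9 higher and 1 lower, beside 22.6% and 18.8% of all genes. Acadm, the medium-chain acyl-CoA dehydrogenase, rose by 1.45 ± 0.12 in BTBR, and Slc25a20, the carnitine carrier, by 1.10 ± 0.10. Of the peroxisomal genes, Aldh3a2, which oxidises fatty aldehydes, rose by 1.87 ± 0.17 in BTBR and 1.95 ± 0.17 in B6, Abcd2, a transporter of very long acyl-CoAs, by 1.46 ± 0.27 and Ehhadh, the bifunctional enzyme, by 1.19 ± 0.22 in BTBR (SE). Of the other PPAR target genes 10 of 18 rose and 0 fell in BTBR, and 7 rose and 4 fell in B6. The lipid droplet gene Cidec rose by 2.79 ± 0.31 in BTBR and 4.93 ± 0.31 in B6, its relative Cidea by 1.37 ± 0.18 in BTBR and 6.11 ± 0.18 in B6, and Cd36, a fatty acid transporter, by 2.69 ± 0.13 in BTBR and 2.36 ± 0.13 in B6.

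The wider thioesterase family moved in both strains: 8 of 12 rose and 1 fell in 10-week BTBR ob livers, and 8 rose and 2 fell in B6 ones. Acot12 rose by 0.82 ± 0.09 and the peroxisomal Acot8 by 0.79 ± 0.09 in BTBR, Acot11 by 0.79 ± 0.15 in BTBR and 2.82 ± 0.15 in B6, while Them5 changed by -0.60 ± 0.17 in BTBR and -0.66 ± 0.17 in B6. Of the other Cyp4 genes 3 of 9 rose and 4 fell in BTBR, and 1 rose and 5 fell in B6, shares read against the same background of all genes (28% and 21.7% in BTBR, 22.6% and 18.8% in B6). Cyp4f14 changed by -1.61 ± 0.12 in BTBR and -1.08 ± 0.12 in B6. In coenzyme A synthesis and breakdown 7 of 12 rose and 3 fell in BTBR, and 7 rose and 4 fell in B6. Vnn3, the other pantetheinase gene, rose by 0.71 ± 0.14 in BTBR and 1.08 ± 0.14 in B6. The peroxisomal coenzyme A hydrolase gene Nudt7 changed by -2.01 ± 0.35 in BTBR and its relative Nudt19 by 0.95 ± 0.11, in opposite directions. Among the receptors in BTBR livers, Ppara itself changed by -0.32 ± 0.13 and Pparg by 1.21 ± 0.11 (SE).

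In 10-week BTBR ob gastrocnemius, where Acot1 and Acot2 stood out, 13 of 18 mitochondrial oxidation genes rose and 1 fell, and 11 of 18 other PPAR targets rose and 1 fell, beside 11.9% and 13.3% of all genes. In B6 these were 2 and 2, and 1 and 3, beside 8.18% and 8.06%. Plin5, a lipid droplet protein of oxidative tissue, rose by 1.76 ± 0.17 in BTBR, the fatty acid binding protein gene Fabp3 by 1.46 ± 0.15 and Pdk4, a kinase that blocks pyruvate oxidation, by 1.26 ± 0.25, whereas Pdk4 changed by -1.34 ± 0.25 in B6. Acadl rose by 1.17 ± 0.10 and Nudt7 by 0.96 ± 0.10 in BTBR. In soleus 11 of 18 PPAR targets rose and 1 fell in BTBR (13.5% and 14.7% of all genes), against 0 and 5 in B6 (8.26% and 7.07%), and 3 of 18 mitochondrial oxidation genes rose and 2 fell in BTBR. Angptl4, an inhibitor of lipoprotein lipase, rose by 1.40 ± 0.26 in BTBR and fell by 2.00 ± 0.26 in B6. Of the wider thioesterase family 2 of 12 rose and 4 fell in 10-week BTBR gastrocnemius. Whether a list as a whole differs between strains was not tested.

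The genes whose pattern over the 40 liver arrays was most like that of each member, after the mean of the strain was subtracted, are given with Pearson's r as a description. The arrays share the groups and the pools, so group differences are part of these values. For Cyp4a10 they were Tktl2 (0.934), P3h3 (0.915) and Gstk1 (0.913), all below the r of 0.975 with Cyp4a14. For Acot3 they were Slc16a5 (0.892), Acot13 (0.891) and Arrdc4 (0.889), below 0.968 with Acot4. For Vnn1 they were Mogat1 (0.885), Aldh3a2 (0.883) and Eci1 (0.88). Acot1 had weaker partners than the other members in liver, led by Ehhadh (0.812), Acadl (0.731) and Nqo2 (0.718), while for Acot2 they were Nqo1 (0.936), 4930513O06Rik (0.918) and Aldh3a2 (0.918). Over the 80 muscle arrays Acot1 was closest to Slc25a34 (0.905), Fbp2 (0.905) and Chrna2 (0.897), with 0.942 for Acot2, and Acot2 to Mlycd (0.952), Pex11a (0.947) and Slc25a34 (0.92). Slc25a34 thus stood in both sets. Cyp4a10 in muscle was closest to Fbp1 (0.932), Aldh8a1 (0.924) and Hgd (0.915), the first of which encodes the liver form of fructose bisphosphatase.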

How the data were processed

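Per the labels, total RNA was taken with Trizol and an RNeasy column, turned into cRNA in 1 round and labelled with Cy3 and Cy5. The deposited values are log10 ratios of 1 mouse to its strain and tissue pool, as read from the values (they centre on 0 and stop at limits of -2 and 2), with array medians of -0.112 to 0.108 after rescaling to log2. No source used here names the scanner, the background correction or the normalization. For BTBR adipose tissue the labels call the pool one of ob mice, which cancels within the strain. No array batch is named.

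Of 39556 probes, 23283 (58.9%) got 1 gene symbol through the platform annotation, and the mean was taken over the probes of a gene, for 19896 genes. None of the members' values was at a limit. The 40 arrays of a tissue entered 1 limma fit (limma 3.58.1, R 4.3.3) of 8 group means, with moderated variances and Benjamini-Hochberg adjustment over all genes. Tests are 2-sided. Correlations used deviations from group means and 100000 permutations within groups, so that 1e-05 is the smallest raw p they can give, adjusted over the 21 relations of a family. On simulated data with 200 genes changed by 1 log2 unit, the fit found 95.5% of them in liver and 96% in islets, with 3.54% and 4.95% of calls false. There the noise was normal and drawn for each gene on its own, and no other gene changed. These shares need not hold for the real arrays, where genes vary together and far more were called. The rest used Python 3.11.15 with matplotlib 3.10.9, scipy 1.17.1, pandas 2.3.3 and numpy 2.4.6.

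The members and the lists were chosen with earlier results of these data known. The text names the 7 members in every tissue, up to 4 called genes of a pathway list with the largest change (or 2 with the smallest p), the 3 genes most like a member, marker genes and Lep, and prints a part of them. The age difference in lean liver and muscle was to be tested, but its arrays also entered the effects that chose the members, so it is a description. Beside the alternatives in the closing section, marker means as covariates and correlations with hepatocyte markers were added after the data had been seen. Whether separate animals were handled on separate days is not given, so p-values measure the spread between these mice.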

Additional observations from a re-analysis of the deposited data

Results flagged for a closer look

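In a group of 5 mice, 1 value was taken as standing apart where its gap to the nearest other mouse was over 0.71 of the group's range (Dixon's test). This met 23 of the 336 groups of a gene, a strain, an age, a genotype and a tissue, or 6.85%, where chance gives about 5%: 8 in gastrocnemius, 5 in soleus, 4 in islets, 3 in fat, 2 in hypothalamus and 1 in liver. The values below are log2 ratios to the pool, with the range of the other 4 mice. Acot1 was at 1.23 in 4-week lean B6 mouse 34 in gastrocnemius, against 0.07 to 0.40 in the others of the group. The value of Acot1 was -1.69 for 10-week lean BTBR mouse 26 in gastrocnemius, with the others at -2.21 to -2.06. In 4-week ob B6 mouse 14 in soleus, Acot1 stood at -0.43 beside -1.87 to -1.46. Acot2 was at 0.22 in 4-week lean B6 mouse 34 in gastrocnemius, against -0.37 to -0.22 in the others of the group. The value of Acot2 was 0.45 for 4-week lean B6 mouse 34 in soleus, with the others at -0.52 to -0.29. Acot3 was at 0.58 in 10-week ob B6 mouse 1823 in fat, against 0.12 to 0.25 in the others of the group.

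Acot4 was at 0.11 in 4-week lean B6 mouse 35 in hypothalamus, against -0.04 to -0.01 in the others of the group. The value of Acot4 was 0.44 for 4-week lean B6 mouse 45 in islets, with the others at 0.04 to 0.11. In 4-week ob BTBR mouse 13 in islets, Acot4 stood at 0.12 beside -0.03 to -0.01. Cyp4a10 was at 1.77 in 10-week lean B6 mouse 24 in fat, against -3.29 to -2.23 in the others of the group. The value of Cyp4a10 was 0.30 for 4-week ob B6 mouse 10 in gastrocnemius, with the others at -0.52 to -0.31. In 10-week ob B6 mouse 1751 in gastrocnemius, Cyp4a10 stood at -0.56 beside -0.25 to -0.15. For Cyp4a10, 4-week ob B6 mouse 14 in hypothalamus had 0.53 and its group 0.03 to 0.05. Cyp4a10 was at -0.48 in 4-week ob B6 mouse 10 in islets, against -0.08 to -0.03 in the others of the group. The value of Cyp4a10 was -0.11 for 10-week lean B6 mouse 22 in islets, with the others at 0.17 to 0.22. In 4-week lean BTBR mouse 36 in soleus, Cyp4a10 stood at 1.68 beside -0.90 to -0.46. For Cyp4a10, 10-week ob BTBR mouse 8 in soleus had 2.20 and its group -0.54 to -0.11. Cyp4a14 was at 0.71 in 10-week ob B6 mouse 1823 in fat, against 0.10 to 0.13 in the others of the group. The value of Cyp4a14 was -0.14 for 10-week lean BTBR mouse 31 in gastrocnemius, with the others at 0.01 to 0.06. In 10-week lean BTBR mouse 30 in liver, Cyp4a14 stood at -2.55 beside -3.52 to -3.30. Vnn1 was at 0.17 in 10-week ob B6 mouse 1752 in gastrocnemius, against -0.01 to 0.02 in the others of the group. The value of Vnn1 was -0.093 for 4-week lean BTBR mouse 37 in gastrocnemius, with the others at -0.03 to -0.02. In 4-week lean B6 mouse 35 in soleus, Vnn1 stood at 1.61 beside -0.15 to -0.06. Mouse 34 of the 4-week lean B6 group stood apart as the highest for Acot1 in gastrocnemius and for Acot2 in both muscles. Cyp4a10 accounted for 8 of the 23 values.

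The effect of obesity differed between strains, by the test of the difference itself with limma over all genes, for Acot1 in islets at 10 weeks (BTBR minus B6, 3.13), Acot2 in islets at 10 weeks (0.42) and at 4 weeks (-0.66), Acot3 in islets at 10 weeks (0.33), Acot2 in fat at 10 weeks (0.55) and Acot4 in fat at 10 weeks (0.60). The opposite courses of Acot1 in 10-week islets, higher in BTBR ob mice and lower in B6 ob mice, were the largest of these. Within BTBR the 10-week ob mice all lay above every lean mouse of their age, and the 4-week ob mice all below every lean mouse of theirs, for Acot1 in soleus (10-week effect minus 4-week effect, 4.30), Acot2 in soleus (2.03) and Acot1 in islets (2.14), and these differences between ages were not tested.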

How the results depend on the processing

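Each comparison was repeated with the most variable probe of a gene, arrays centred on their median, quantile normalization, the groups of the comparison alone, without the 4 arrays that stood apart, and without each mouse; hepatocyte and acinar marker means as covariates were chosen after seeing the data. No result reversed. Of the alternatives other than leaving out a mouse, 777 values of single genes were the same, 13 lost their call and 3 moved. The count of genes called was 1, against 0, for age in lean BTBR fat with centring, quantile normalization or the hepatocyte covariate. In 4-week B6 fat it was 2 with quantile normalization or the hepatocyte covariate and 0 with the groups alone, against 1. In 4-week BTBR fat it was 1 without the arrays apart, against 2. With the hepatocyte covariate it was 3 in 10-week B6 fat, against 6, and 4 for the strain difference in 10-week fat, against 2. In islets it was 1, against 2, for age in lean B6 mice with the groups alone, and with the acinar covariate 1 in 4-week B6 (against 2) and 1 in 10-week B6 mice (against 3). The pairs correlated in gastrocnemius were 1 without the 2 farthest arrays, against 3. The cause was not tested. Leaving out 1 mouse gave counts of 0 to 1 for age in lean fat of each strain, 0 to 2 in 4-week B6 fat, 1 to 3 in 4-week BTBR fat, 0 to 1 for age in lean B6 hypothalamus and in 4-week B6 hypothalamus, 1 to 3 for age in lean B6 islets and 2 to 4 in 4-week BTBR islets, and a median difference of the 7 genes of -0.512 to -0.083 in 4-week B6 soleus, against -0.429, the far end being without lean mouse 35. Among the pathway lists, quantile normalization, centring or the groups alone moved 1 to 3 calls of lists with few calls in B6 muscle. No paired analysis was possible because ob and lean mice, and mice of 10 and 4 weeks, are different animals whose numbers do not pair them. Groups of 5 mice and an unsettled direction of the ratio limit all results, and a probe's share of signal from a close copy is unknown.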
